A study of Homo sapiens with 3 samples.

Results

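Galectins, the lectins that bind β-galactosides on glycoproteins and glycolipids, were followed through a co-culture of Caco-2 and HT29, both colorectal tumour lines, that stands in for the gut lining. The members were the genes of the count tables with the symbols LGALS1, LGALS2, LGALS3, LGALS4, LGALS8 and LGALS9, and all 6 were found among the 33538 genes listed. Caco-2 cells of passage 8 and HT29 cells of passage 13 were seeded at 9:1 on Transwell membranes and harvested on day 23. RNA of single cells was read with the 10x Genomics 3′ assay in 2 untreated control libraries and in 1 library whose apical chamber had received 1 ng/ml lipopolysaccharide (LPS) of Escherichia coli O111:B4 on day 22 for 24 h. Both lines are aneuploid tumour lines, and no immune or stromal cells were added. Nothing in the labels says whether the controls were separate experiments, so the spread between them may be technical.

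Galectins are made without a signal peptide and work both inside the cell and, after leaving it by an unconventional route, at the surface and in the lumen. LGALS1 and LGALS2 are prototype galectins with a single carbohydrate-binding domain that pair into dimers. LGALS3 is the chimera type, with a collagen-like tail through which it forms lattices on surface glycans, and it takes part in apical sorting and in marking of damaged vesicles. LGALS4, LGALS8 and LGALS9 are tandem-repeat galectins that join a pair of binding domains on a linker. LGALS4 is typical of the digestive tract and is known for organising sulfatide-rich rafts of the brush border. LGALS8 draws autophagy receptors to broken endosomes, and LGALS9 is best known as an immune ligand. 

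The genes lie on 5 chromosomes of GRCh38, and LGALS1 (ENSG00000100097, 37675636 to 37679802) and LGALS2 (ENSG00000100079, 37570248 to 37582616) are both on chromosome 22. LGALS3 (ENSG00000131981) lies on chromosome 14 from 55124110 to 55145423, LGALS4 (ENSG00000171747) on chromosome 19 from 38801671 to 38812945, LGALS8 (ENSG00000116977) on chromosome 1 from 236518000 to 236552981 and LGALS9 (ENSG00000168961) on chromosome 17 from 27629798 to 27649560. RefSeq's promoter table (GRCh38.p14) held 5 of the 6 members. The 250 bases before the start used in that table are shown for LGALS3 and LGALS2, which were higher in Caco-2-line cells, and for LGALS4, which was higher in HT29-line cells. For LGALS3 and LGALS2 that start lies inside the gene span given above. Motif matches are in capitals. LGALS3 stands at chr14:55129002-55129251 on the plus strand, LGALS2 at chr22:37580088-37580337 on the minus strand and LGALS4 at chr19:38812946-38813195 on the minus strand.
LGALS3: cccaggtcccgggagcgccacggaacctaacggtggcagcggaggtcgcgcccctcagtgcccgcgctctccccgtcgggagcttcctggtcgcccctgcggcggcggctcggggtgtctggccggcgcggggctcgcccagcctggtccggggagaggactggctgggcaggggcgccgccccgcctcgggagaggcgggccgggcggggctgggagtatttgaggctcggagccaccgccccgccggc
LGALS2: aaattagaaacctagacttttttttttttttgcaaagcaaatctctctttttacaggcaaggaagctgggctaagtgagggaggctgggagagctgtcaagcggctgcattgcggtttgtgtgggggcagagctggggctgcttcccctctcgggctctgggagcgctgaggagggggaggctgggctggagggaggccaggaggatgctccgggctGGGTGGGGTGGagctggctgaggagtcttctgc
LGALS4: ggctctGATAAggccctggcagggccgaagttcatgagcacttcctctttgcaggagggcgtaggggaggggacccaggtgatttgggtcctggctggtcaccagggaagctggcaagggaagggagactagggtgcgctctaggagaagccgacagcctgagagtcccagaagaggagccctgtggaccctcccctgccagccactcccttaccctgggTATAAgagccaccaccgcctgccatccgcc
The LGALS3 window was 78.8% G or C, against 58.0% for LGALS2, 63.2% for LGALS4 and a median of 58% over 35116 promoter windows. Letters of 6 motifs were searched on both strands, after the sequences had been read. LGALS4 held the letters GATAA, a core bound by GATA factors, at -244 to -240 from the start. At any place in the window, 20.4% of all windows held them. The LGALS4 window also held the TATA box letters TATAA at -30 to -26, and 18.9% of windows held these letters at any place. LGALS2 held the CACCC box, searched as CCACCC, at 2 overlapping places on the minus strand, at -33 to -28 and -28 to -23, a motif found in 31.3% of windows. The HNF4 motif CAAAGTCCA was found in none of the 3, against 0.325% of windows. The CDX motif TTTATG and the HNF1 motif GTTAAT were found in none either, against 9.64% and 6.23%.

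A unique molecular identifier (UMI) marks each captured RNA molecule at its 3′ end, so a UMI count does not grow with transcript length, although capture can differ between genes. After filters, 4633 cells of control 1, 4989 of control 2 and 4850 of the LPS library were kept, with median depths of 5452, 4101 and 3572.5 UMIs per cell. The libraries shared between 4 and 6 barcodes per pair. Each cell was given to a line from a score over line-specific genes that held no galectin, and 0.626%, 1.42% and 1.71% of the kept cells, which reached a posterior of 0.95 for neither line, were left out of the line sums. HT29-line cells made up 13.7%, 19.3% and 16.8% of the 3 libraries. Of the 4 epithelial markers EPCAM, KRT8, KRT18 and CDH1, all were present at a sum of 3009 to 3120.2 CPM (UMI counts scaled to a common total, as in all levels here), while 5 fibroblast, 5 leukocyte and 3 endothelial markers summed to 16.1 to 21.1, 29.3 to 30.6 and 2.00 to 2.38 CPM. In control 1, control 2 and the LPS library, 5, 4 and 4 of the fibroblast markers, 4, 3 and 4 of the leukocyte markers and 2, 2 and 3 of the endothelial markers had a UMI. The leukocyte marker MS4A1 was at 0 in each library. Another of them, CD3E, was among the top 10 genes of a cluster of Caco-2-line cells (cluster 5, described below).

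The 6 galectins were split by line. In Caco-2-line cells LGALS3 held 87.2%, 83.3% and 82.9% of the UMIs of the 6 genes in control 1, control 2 and the LPS library, and LGALS2 held most of the rest, at 9.83%, 11.4% and 12.8%. In HT29-line cells LGALS4 held 73.4%, 71.8% and 72.4%, and LGALS3 was second at 19.6%, 19.8% and 19.7%. The summed level of the 6 genes was 2311, 2074 and 1841 CPM in Caco-2-line cells and 2897, 2894 and 2499 CPM in HT29-line cells. It was closer between the lines than any of the leading members. LGALS14, which is not among the 6, is left out of these shares and sums. It stood at 1253, 1218 and 1084 CPM in Caco-2-line cells, above LGALS2, and at 54.5, 51.7 and 77.8 CPM in HT29-line cells. The shares and sums thus describe the 6 genes alone, not all galectins of the cells.

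**Figure D1:**
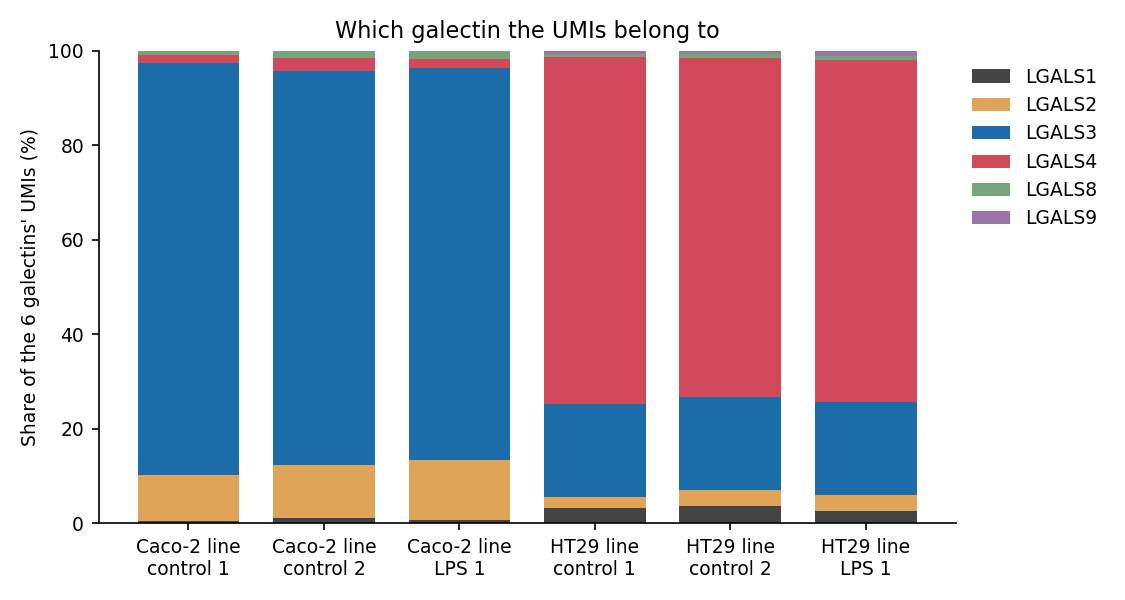
Share of the UMIs of the 6 galectins that belongs to each gene (percent, stacked to 100), by line and library. LGALS3 fills 82.9 to 87.2% of the bars of Caco-2-line cells and LGALS4 71.8 to 73.4% of those of HT29-line cells.

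LGALS4 stood at 2125, 2077 and 1808 CPM in HT29-line cells of control 1, control 2 and the LPS library, and at 41.3, 59.4 and 36.3 CPM in Caco-2-line cells. Every HT29-line sum was far above every Caco-2-line sum. The difference in the controls was 5.28 ± 0.19 on the log2 scale (SE, n = 2 control libraries, adjusted p = 3.51e-11, edgeR), the largest of the 6 members. HT29-line cells held 85.8%, 81.8% and 81.2% of all LGALS4 UMIs while being under 20% of the cells. With each cell thinned to 1500 UMIs, a UMI of LGALS4 was found in 76.8 to 78.6% of HT29-line cells and in 2.38 to 4.58% of Caco-2-line cells. Unthinned, the shares were 86.1 to 91.5% and 5.21 to 8.63%.

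What was left of LGALS4 in Caco-2-line cells lay near the level that HT29 genes reach there. Over 10 markers of undifferentiated HT29 cells, the Caco-2-line level was 1.30%, 2.01% and 1.47% of the HT29-line level at the median, with a range over the libraries of 0.491 to 3.41%, and for LGALS4 it was 1.94%, 2.86% and 2.01%. In control 1 LGALS4 lay just above the highest marker, at 1.93%, and in the other libraries it was inside the markers' range. Part of it came from a single Caco-2-line cluster, described with the clusters.

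The immune ligand LGALS9 and the prototype galectin LGALS1 also had higher levels in HT29-line cells, at much lower absolute level. LGALS1 was at 92.5, 105 and 66.8 CPM there and at 8.71, 20.7 and 12.4 CPM in Caco-2-line cells, a difference of 2.66 ± 0.27 in the controls (log2, SE, adjusted p = 5.67e-07, edgeR). Its Caco-2-line level was 9.41 to 19.6% of the HT29-line level, above the range of the HT29 markers. LGALS9 reached 18.5, 13.9 and 25.9 CPM against 1.74, 1.90 and 1.67 CPM, from 55 to 83 UMIs per library in HT29-line cells. The difference was 3.04 ± 0.25 (log2, SE, adjusted p = 7.75e-08, edgeR). Of the 31-base words in the last 300 bases of LGALS9 transcripts, 50.1% also lay in transcripts of other genes, among them LGALS9B and LGALS9C, so the counting may have lost LGALS9 reads in all groups alike. LGALS9B and LGALS9C themselves had 2 and 1 UMIs in all 14472 kept cells.

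LGALS3 and LGALS2 ran the other way. LGALS3 was at 2014, 1728 and 1526 CPM in Caco-2-line cells and at 569, 574 and 493 CPM in HT29-line cells, and the groups did not overlap. The difference of HT29-line minus Caco-2-line cells was -1.82 ± 0.14 (log2, SE, n = 2 control libraries, adjusted p = 4.29e-08, edgeR). Unlike LGALS4, LGALS3 was well detected on both sides, with a UMI in 67.2 to 73.4% of thinned Caco-2-line cells and in 41.5 to 48.1% of thinned HT29-line cells. LGALS2 was at 227, 236 and 235 CPM in Caco-2-line cells and at 70.4, 95.5 and 80.3 CPM in HT29-line cells, with a difference of -1.59 ± 0.16 (log2, SE, adjusted p = 5.82e-07, edgeR). The HT29-line level as a share of the Caco-2-line level was 28.2 to 33.2% for LGALS3 and 31 to 40.4% for LGALS2, beside medians of 3.63 to 7.75% for 12 enterocyte markers, of which the highest reached 51.6%.

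LGALS8 showed no line difference that could be measured here. It was at 18.0, 28.2 and 28.9 CPM in Caco-2-line cells and at 21.6, 28.2 and 25.0 CPM in HT29-line cells. The fitted difference was 0.01 ± 0.21 (log2, SE, adjusted p = 0.974, edgeR), and the controls differed from each other more than the lines did. In all, 5 of the 6 members passed the threshold, 3 higher and 2 lower in HT29-line cells, where 60.6% of the 15099 genes tested did so.

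**Figure D2:**
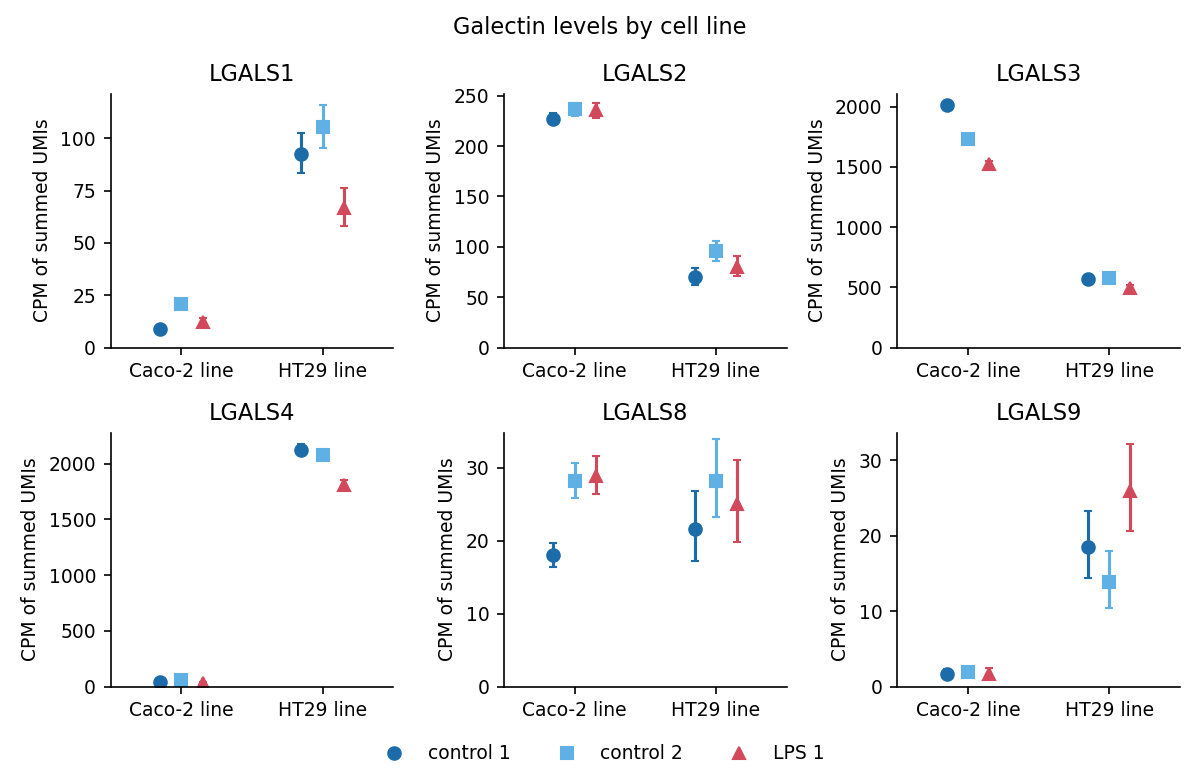
CPM of summed UMIs of each galectin in Caco-2-line and HT29-line cells, 1 point per library, with exact Poisson 95% intervals that cover counting error only. LGALS4 stands at 1808 to 2125 CPM in HT29-line cells and at 36.3 to 59.4 CPM in Caco-2-line cells, and LGALS3 has the opposite order.

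Single cells carried this split. In Caco-2-line cells the median LGALS3 level per cell was 1399, 985 and 911 CPM in the 3 libraries and the 90th percentile 4727, 4426 and 3926 CPM. At 1500 UMIs per cell, 5 or more LGALS3 UMIs were found in 25.5%, 19.6% and 16.7% of Caco-2-line cells and in 1.42 to 1.76% of HT29-line cells. The corresponding share for LGALS4 was 18.0 to 21.9% of HT29-line cells. Within HT29-line cells the genes were not exclusive. Both were seen in 33.6%, 35.9% and 32.4% of thinned cells, where independent detection would give 35.8%, 36.9% and 32.6%.

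Clusters made without any galectin gene gave 19 groups, numbered here, and 12 of them consisted mostly of Caco-2-line cells. Names rest on marker genes, which hold no galectin: intestinal stem cell-like (ISCLC), transit amplifying-like (TALC), enterocyte-like (ECLC), goblet cell-like (GCLC), enteroendocrine-like (EECLC), undifferentiated HT29 (U-HT29) and 2 small Caco-2-line groups named LYZ+ ECLC and FGEC after the study's own classes. A further 6 clusters stayed unnamed, among them the largest, cluster 1 with 2903 cells. ISCLC held 3049 cells, TALC 1450 and ECLC 2025 in the partition used here. In the paper ISCLC were a small share of the cells and ECLC the largest class. The classes here thus carry the study's names but need not be its populations. The partition was not stable: with 5 other random seeds for the same steps, between 72.9% and 94.2% of cells kept their class, ISCLC held 818 to 3298 cells and TALC 1225 to 3774. ECLC held 2025 to 2169 cells, LYZ+ ECLC 282 to 311, GCLC 225 to 290 and EECLC 187 to 256 over the same partitions. U-HT29 held 1776 cells in the partition used here and 2306 to 2313 with the other seeds. With seeds 1, 2 and 3, 37.0% to 38.2% of the cells named TALC were TALC in the partition used here. Levels are those of the partition with 19 clusters, and where the class or its order turned on the partition the range over all 6 is given beside them. The classes were also drawn from the cells that are compared, so genes that vary with the markers will tend to differ between them.

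LGALS3 was graded over the Caco-2-line classes. ISCLC pooled cluster 2 (2588 cells), led by SOX2 and FGG, and cluster 8 (461 cells), led by REG3A and UTS2. ISCLC was named from a list of stem cell markers, and neither cluster had SMOC2 or LGR5 among its top 10 genes. Cluster 8 had PLA2G2A and OLFML3 of that list in its top 10, but also DKK1, which stands on the TALC list. The paper describes high DKK1 in its TALC 1 group. ISCLC held 703, 593 and 582 CPM in control 1, control 2 and the LPS library. Its parts differed, with control means of 703.8 CPM in cluster 2 and 364.7 CPM in cluster 8. In the LPS library they held 630.3 and 350.2 CPM. TALC, led by DNA replication genes such as MCM10, held 1363, 1104 and 1051 CPM. With clusters drawn at a resolution of 0.8, 1335 cells with AURKA and PTTG1 among their top genes formed an unnamed cluster outside TALC. TALC thus need not hold all dividing cells. At the same resolution 1953 cells with SOX2 and MYCN among their top genes formed another unnamed cluster, so the ISCLC name rests on the partition as well. LYZ+ ECLC held 2385, 1839 and 1665 CPM, and ECLC, marked by APOA4 and FABP2, stood at the top with 4127, 4388 and 3562 CPM. The ranges of these 4 classes did not overlap in this partition. Over the 6 partitions ISCLC spanned 364 to 919 CPM and TALC 807 to 1561 CPM, which overlap, while ECLC spanned 3421 to 4442 CPM and stayed above both. With cells thinned to 1500 UMIs, a UMI of LGALS3 was found in 44.3 to 45.6% of ISCLC, 60.4 to 69.3% of TALC and 96.1 to 97.7% of ECLC. The unnamed cluster 1, led by S100A9 and CCL20, and cluster 5, led by GNRH2, lay between TALC and ECLC at 1829 to 2407 and 1919 to 2709.5 CPM.

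ECLC exceeded TALC in LGALS3 by 2.05 ± 0.19 in the controls (log2, SE, n = 2, adjusted p = 3.77e-10, edgeR). With the other seeds the difference was 1.92 to 2.51 and passed in each. LGALS2 was higher in ECLC too, at 297, 303 and 278 CPM against 191, 205 and 219 CPM in TALC, by 0.87 ± 0.18 (log2, SE, adjusted p = 0.000209, edgeR). ISCLC, at 197, 198 and 204 CPM of LGALS2, overlapped with TALC in this partition. Over the 6 partitions ISCLC spanned 131 to 204 CPM and TALC 189 to 225 CPM of LGALS2, and with seeds 1, 2 and 3 every ISCLC sum lay below every TALC sum. LGALS8 differed by 0.82 ± 0.26 (log2, SE, adjusted p = 0.0124, edgeR, and 0.0519 with DESeq2), with 14 and 23.7 CPM in TALC and 19.6 and 36.4 CPM in ECLC of control 1 and control 2. These CPM differ by less than the fit, which used TMM scaling factors that the CPM do not. The same holds for the other members between ECLC and TALC, whose fitted differences are also larger than their CPM give. LGALS1 was at 5.65 and 6.77 CPM in TALC and at 8.02 and 21.5 CPM in ECLC, a difference of 1.41 ± 0.42 (log2, SE, adjusted p = 0.00781, edgeR, and 0.0948 with DESeq2). The LGALS1 difference was 0.695 without control 2, and -0.06 when clusters came from log-normalized counts without integration.

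LGALS4 also passed the threshold between ECLC and TALC, at 2.10 ± 0.36 (log2, SE, adjusted p = 1.84e-05, edgeR), at levels far below that of HT29-line cells. ECLC held 25.3, 55.9 and 31.2 CPM and TALC 9.59, 12.5 and 10.9 CPM, where HT29-line cells held 1808 to 2125 CPM. Over the 6 partitions TALC spanned 8.22 to 14.9 CPM of LGALS4, 12.4 to 24.6 CPM of LGALS8, 3.23 to 8.36 CPM of LGALS1 and 0.425 to 2.03 CPM of LGALS9. The 10 U-HT29 markers had a median difference of 1.20 on the log2 scale in this comparison, with 0 called by edgeR in either direction, and their part in the LGALS4 difference was not tested. LGALS9 did not pass, at 0.80 ± 0.62 (log2, SE, adjusted p = 0.318, edgeR), with 2.11 and 2.08 CPM in ECLC against 0.983 and 2.03 CPM in TALC. So 5 of the 6 members were called higher in ECLC, where 42.5% of the 12873 genes tested were called in either direction.

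**Figure D3:**
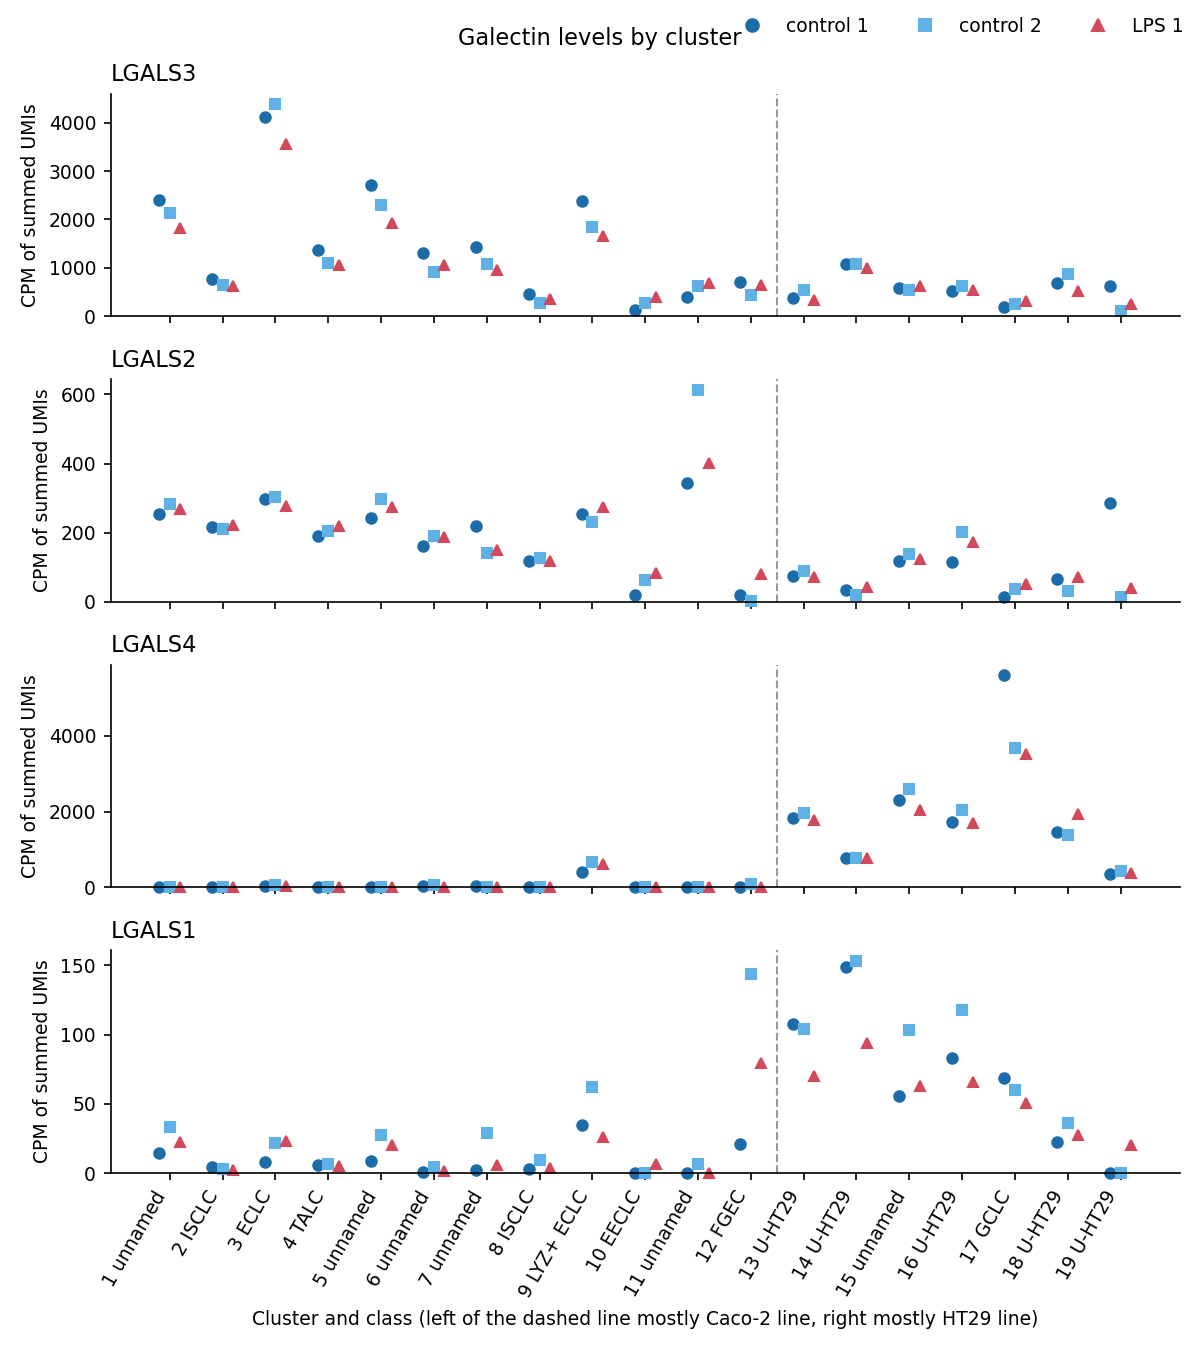
CPM of summed UMIs of LGALS3, LGALS2, LGALS4 and LGALS1 in each of the 19 clusters, 1 point per library, with clusters mostly of Caco-2-line cells left of the dashed line. LGALS3 peaks at 3562 to 4388 CPM in ECLC (cluster 3) and LGALS4 at 3505 to 5595 CPM in GCLC (cluster 17).

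Rarer Caco-2-line groups departed from this order. The enteroendocrine-like cluster 10 held LGALS3 at 125, 275 and 398 CPM and LGALS2 at 20.8, 62.0 and 82.1 CPM, below ISCLC for both genes in this partition, and no LGALS1 UMI in either control. Its LGALS4 level depended on the partition. It was 16.6, 7.75 and 18.9 CPM in its 196 cells here and at most 19.9 CPM with seeds 1 to 4. With seed 5, however, EECLC held 256 cells and 324, 200.1 and 397 CPM of LGALS4. With that seed GCLC held 225 cells, against 286 in the partition used here. Whether cells passed between these classes was not tested. In the 71 cells of FGEC, LGALS2 was at 20.8, 3.59 and 79.7 CPM, below ISCLC, TALC and ECLC, and LGALS1 at 20.8, 144 and 79.7 CPM, which spread too widely to be ranked. The 86 cells of the unnamed cluster 11, led by STC1, held the highest LGALS2 levels, at 345, 614 and 402 CPM, from 11, 27 and 48 cells. LGALS8 was highest in the unnamed cluster 7, led by ITGA5, at 42.8, 67.5 and 80.7 CPM.

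LYZ+ ECLC (cluster 9) was the Caco-2-line group in which LGALS4 reached 411, 679.7 and 615 CPM. With its Caco-2-line cells alone the level was 404, 585 and 632 CPM, and in all other Caco-2-line cells it was 27.3, 27.5 and 25.4 CPM. The U-HT29 markers stood higher in the same cells too, at a median of 12.3%, 21.3% and 22.7% of their HT29-line level, beside 0.742% to 0.859% in the other Caco-2-line cells, where LGALS4 was at 1.29% to 1.40% of its own HT29-line level. Depth was higher as well, with medians of 12510.5, 5565.5 and 8140.5 UMIs per cell beside 5420.5, 4175 and 3568, and so was the median doublet score, at 0.122, 0.0752 and 0.168 beside 0.0641, 0.0693 and 0.0752. Their part in the LGALS4 level was not tested.

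Of the 2 classes of HT29-line cells, GCLC held more LGALS4 and less LGALS3 than U-HT29. GCLC was led by SST, FCGBP, the mucin MUC2 and GCG, in that order. SST and GCG are hormone genes that also stand on the EECLC marker list. GCLC held LGALS4 at 5595, 3688 and 3505 CPM, and U-HT29 held 1376, 1611 and 1464 CPM. Over the 6 partitions GCLC spanned 3505 to 6465 CPM and U-HT29 1376 to 1847 CPM of LGALS4. A UMI of LGALS4 was found in 84.9 to 87.5% of thinned GCLC and in 70.5 to 74.8% of thinned U-HT29 cells. The difference in the controls was 1.56 ± 0.26 (log2, SE, n = 2, adjusted p = 8.79e-05, edgeR), and the adjusted p was 0.135 with DESeq2. It was 1.06 without control 1. The GCLC controls were far apart, at 4641 ± 1348 CPM (SD, n = 2), yet both lay above every U-HT29 sum.

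LGALS3 was lower in GCLC, at 201, 255 and 326 CPM, than in U-HT29, at 701, 709.9 and 598 CPM, with a difference of -1.71 ± 0.22 (log2, SE, adjusted p = 9.65e-07, edgeR). With no doublets removed the LGALS3 difference was -0.76 (adjusted p = 0.0399, edgeR). LGALS2 was lower too, at 15.3, 38.6 and 50.7 CPM against 73.0, 98.5 and 92.0 CPM, with a difference of -1.71 ± 0.33 (log2, SE, adjusted p = 0.000443, edgeR), and of -2.42 without control 2. Neither pair of ranges overlapped. LGALS9 did not pass, at 0.69 ± 0.44 (log2, SE, adjusted p = 0.424, edgeR), with 22.9, 25.7 and 9.51 CPM in GCLC and 16.4, 12.2 and 24.8 CPM in U-HT29. LGALS8 differed by -0.69 ± 0.45 (adjusted p = 0.428, edgeR). LGALS1 differed by -0.88 ± 0.35 (adjusted p = 0.132, edgeR), and it passed with the library as a block (adjusted p = 0.0143) and without a filter on low counts (adjusted p = 0.00754). Thus 1 member was called higher and 2 lower in GCLC, where 8.48% of the 12873 genes tested were called.

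The larger HT29-line clusters were not alike in their galectins. Cluster 14, led by LY6D and CST6, held LGALS4 at 784, 783 and 779 CPM and LGALS3 at 1071, 1076 and 1007 CPM. Its LGALS1 level, at 149, 153 and 93.8 CPM, was above that of clusters 13, 15 and 16 in each library. Cluster 15, with 145, 185 and 200 cells in the 3 libraries, was led by LCN15. It had 9 of the 10 U-HT29 markers raised but stayed unnamed and out of the U-HT29 sums, since its top 10 genes held LYZ, a marker of another class, and none of the U-HT29 list. It held LGALS4 at 2295, 2601 and 2053 CPM and LGALS3 at 594, 534 and 620.4 CPM. Cluster 16, led by the water channel AQP1, held LGALS4 at 1722, 2045 and 1688 CPM, and cluster 13, led by NUPR1, at 1838, 1959 and 1782 CPM. For LGALS4 the ranges of clusters 13 and 16 overlapped, while cluster 14 lay below and cluster 15 above both.

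**Figure D4:**
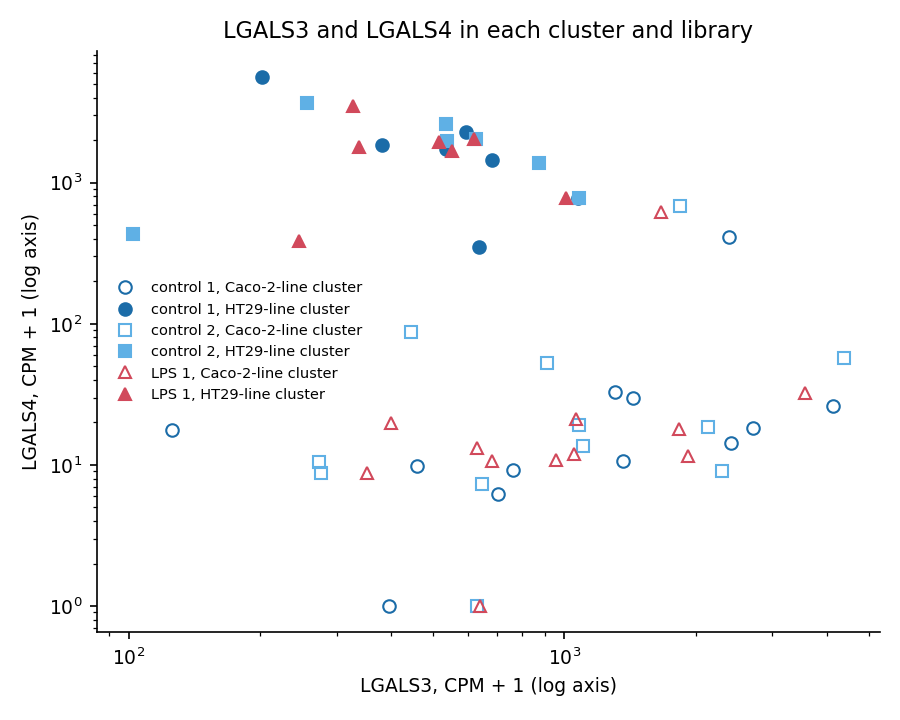
LGALS3 and LGALS4 levels (CPM + 1, log axes) of each of the 19 clusters in each library, with filled points for clusters mostly of HT29-line cells. HT29-line clusters lie at 349.8 to 5595 CPM of LGALS4, and LYZ+ ECLC lies at 411 to 679.7 CPM, apart from the other Caco-2-line clusters.

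Over the classes the order of LGALS3 in the controls was ECLC, LYZ+ ECLC, TALC, U-HT29, ISCLC, FGEC, GCLC and EECLC. Of the neighbours in that order, U-HT29 and ISCLC, ISCLC and FGEC, and GCLC and EECLC overlapped over the 3 libraries. The place of ISCLC for LGALS3 turned on the seed. With seed 1 ISCLC, at 919, 680 and 773 CPM, stood above U-HT29, at 666, 668 and 604 CPM. With seed 2 ISCLC, at 515, 364 and 387 CPM, stood below FGEC, at 703, 442 and 638 CPM, in each library. The order of LGALS4 was GCLC, U-HT29, LYZ+ ECLC, FGEC, ECLC, EECLC, TALC and ISCLC, where FGEC and ECLC, EECLC and TALC, and TALC and ISCLC overlapped. The lower part of this order was not kept by every seed, since with seed 5 EECLC stood above ECLC and FGEC, and with seed 1 ISCLC, at 19.3, 31.4 and 20.9 CPM, stood above TALC, at 8.74, 11.1 and 9.89 CPM. For LGALS2 the order was ECLC, LYZ+ ECLC, ISCLC, TALC, U-HT29, EECLC, GCLC and FGEC, with ISCLC and TALC both at a control mean of 198 CPM. Of the neighbours, ISCLC and TALC, U-HT29 and EECLC, EECLC and GCLC, and GCLC and FGEC overlapped over the 3 libraries, although within each library U-HT29 was above EECLC and EECLC above GCLC.

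LPS moved no galectin past the threshold in either line. There was 1 LPS library, so its sums were taken to vary like those of the controls. In Caco-2-line cells LGALS3 was below both controls, with 1526 CPM (exact Poisson 95% interval 1508 to 1545) against 1871 ± 202 (SD, n = 2 controls), a difference of -0.38 ± 0.17 (log2, SE, unadjusted p = 0.0433, adjusted p = 0.996, edgeR). In HT29-line cells LGALS3 differed by -0.28 ± 0.17 and LGALS4 by -0.28 ± 0.19 on the log2 scale (adjusted p = 1.00 for both, edgeR). LGALS9 was higher in the HT29-line cells of the LPS library, with 25.9 CPM (exact Poisson 95% interval 20.7 to 32.1) against 16.2 ± 3.29 CPM (SD, n = 2 controls), at 0.62 ± 0.28 (log2, SE, unadjusted p = 0.0425, adjusted p = 1.00, edgeR). LGALS1 in HT29-line cells was lower than in both controls, at -0.63 ± 0.33 (log2, SE, adjusted p = 1.00, edgeR). LGALS2 and LGALS8 differed by at most 0.25 in size in either line.

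Caco-2-line LGALS4 differed by -0.55 ± 0.20 under LPS (log2, SE, unadjusted p = 0.0162, adjusted p = 0.996, edgeR). LYZ+ ECLC made up 79 cells in control 1, 194 in control 2 and 38 in the LPS library, and without that cluster the level was 27.3, 27.5 and 25.4 CPM in the 3 libraries. In Caco-2-line cells 0% of the 15099 genes tested were called, with 558 at an unadjusted p under 0.05 and 1 called by DESeq2. In HT29-line cells 9 genes, 0.0596%, were called and none was a galectin. The difference between the lines in the LPS effect was called for 0% of genes, with 330 at an unadjusted p under 0.05 and 0 by DESeq2. Its largest value among the members was 0.81 ± 0.45 for LGALS9 (log2, SE, adjusted p = 1.00, edgeR).

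**Figure D5:**
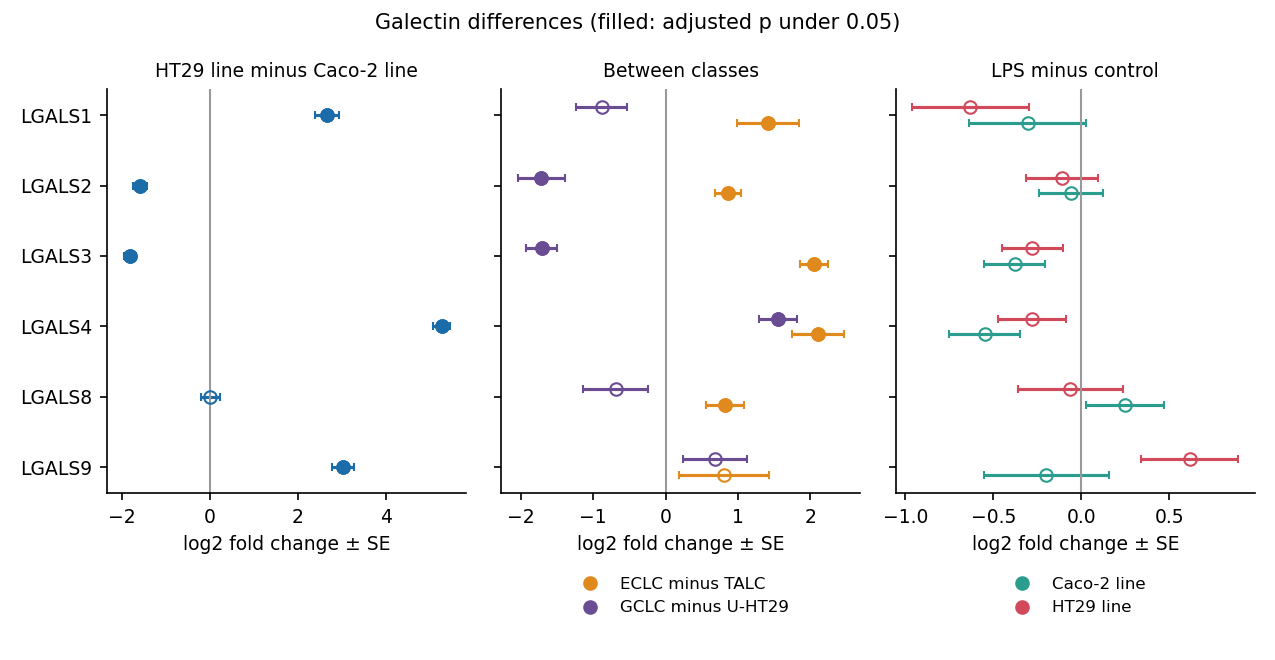
Log2 fold change ± SE of the 6 galectins between lines, between classes and between LPS and control, from edgeR, with filled points for an adjusted p under 0.05. LGALS4 leads the line comparison at 5.28, LGALS3 and LGALS4 stand at 2.05 and 2.10 in ECLC against TALC, and no point is filled for LPS.

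Of the 11 other galectin genes and the galectin-binding LGALS3BP in the files, 3 had a UMI in at least 1% of the kept cells. LGALS14, a galectin known from the placenta, was the most abundant, at 1253, 1218 and 1084 CPM in Caco-2-line cells and 54.5, 51.7 and 77.8 CPM in HT29-line cells. The difference was -4.65 ± 0.16 in the controls (log2, SE, adjusted p = 3.51e-11, edgeR). It was also higher in ECLC, going from 403, 330.5 and 316 CPM in TALC to 3483, 4295 and 3406 CPM in ECLC, a difference of 3.67 ± 0.25 (log2, SE, adjusted p = 4.14e-13, edgeR). Over the alternatives these differences ran from -4.70 to -3.91 and from 2.76 to 4.51, and passed in each that had a test. Its HT29-line level was 4.35%, 4.24% and 7.18% of the Caco-2-line level, and the median of the enterocyte markers there was 3.66%, 3.63% and 7.75%, so both were higher in the LPS library. LGALS3BP, a secreted glycoprotein ligand, was at 333, 359 and 400.5 CPM in HT29-line cells and at 41.9, 53.2 and 59.9 CPM in Caco-2-line cells, a difference of 2.76 ± 0.16 (log2, SE, adjusted p = 1.21e-09, edgeR). LGALSL, a galectin-related gene, had a UMI in 18.1% of the cells, with 28.1 to 45.0 CPM in both lines. The 9 others had between 0 and 84 UMIs each, and LGALS12, LGALS13 and GRIFIN had 0.

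Surface and lysosomal glycoproteins known to bind galectins differed between the lines, although the gene lists were drawn up for this family with earlier results known. Of 18 ligands, 10 were higher and 4 lower in HT29-line cells, with a median log2 difference of 0.53 beside -0.09 for all genes. Of all genes tested, 60.6% were called in this comparison, 4253 higher and 4904 lower. The hyaluronan receptor CD44 was higher by 5.31 ± 0.23, and CD47, a marker of self on the cell surface, by 4.53 ± 0.18, while the peptidase ANPEP was lower by 4.27 on the log2 scale, with an SE of 0.29. CD44 and ANPEP are also markers that named classes. Only the galectins and LGALS3BP were removed from the lists that gave a cell its line. Any gene of the ligand, glycan or vesicle lists that stood on them would differ between the lines by construction, and this was not checked. Of 22 genes of glycan synthesis, 11 were higher and 7 lower, with a median of 0.40. The sialyltransferases ST3GAL4 and ST3GAL1, which cap galactose with sialic acid, were higher by 4.91 ± 0.18 and 4.88 ± 0.19 and the branching enzyme GCNT3 by 4.70 ± 0.21. Of 12 genes of vesicle damage and lysosomes, 8 were higher and 2 lower, with a median of 0.88, and the protease CTSD was higher by 2.45 ± 0.15, while the autophagy receptor CALCOCO2, a partner of LGALS8, differed by -1.42 ± 0.16 and CTSB by -1.40 ± 0.15.

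Between ECLC and TALC, 12 ligands were higher and 0 lower, with a median of 0.86 beside 0.04 for all genes. Of all genes tested, 42.5% were called here, 2895 higher and 2580 lower. The brush border cadherin CDHR5 was higher by 4.18 ± 0.23, ANPEP by 3.04 ± 0.25 and the integrin ITGA5 by 2.67 ± 0.24, and ANPEP and DPP4 are markers that named ECLC. Of the glycan genes 14 were higher and 1 lower, with a median of 0.83, led by the N-glycan enzyme MGAT3 at 2.10 ± 0.39, the fucosyltransferase FUT2 at 1.51 ± 0.23 and GCNT3 at 1.36 ± 0.37. Of the vesicle genes 7 were higher and 0 lower, with a median of 0.89, led by CTSB at 1.97 ± 0.17, CTSD at 1.67 ± 0.18 and the lysosomal regulator TFEB at 1.45 ± 0.40. Between GCLC and U-HT29 no gene of the lists was called higher, and 9 ligands, 5 glycan genes and 2 vesicle genes were called lower, with medians of -0.78, -0.35 and -0.37 beside -0.05 for all genes. Of all genes tested, 8.48% were called here, 436 higher and 656 lower, and the lists held 18, 22 and 12 genes. Among the ligands the integrin ITGA3 differed by -1.67 ± 0.26, CD44 by -1.64 ± 0.25 and CDHR5 by -1.25 ± 0.36 on the log2 scale. CD44 is also a marker that named U-HT29. GCNT3 differed by -2.17 ± 0.26, B3GNT3 by -1.89 ± 0.57, ST3GAL1 by -0.99 ± 0.23, CTSD by -1.65 ± 0.19 and the autophagy receptor SQSTM1 by -0.95 ± 0.20. Under LPS no gene of the 3 lists passed the threshold in either line with edgeR.

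The genes whose pattern was most like that of each member were ranked by Pearson's r of log2(CPM + 1) over 45 sums, from 15 clusters with at least 20 cells in each of the 3 libraries, among 10249 genes. The sums share libraries and depth, and they rest on the partition, so r is a description. LGALS4 was closest to NDUFA4L2 (0.97), MLF1 (0.96) and SMIM22 (0.96), LGALS3 to ETHE1 (0.91), CBR1 (0.90) and GPX4 (0.87), and LGALS2 to PDZK1 (0.83), CIDEB (0.83) and HNMT (0.83). LGALS1 was closest to RRAS (0.93), EGLN3 (0.91) and RAB20 (0.91), LGALS9 to EHF (0.91), MSN (0.91) and TMEM238L (0.91), and LGALS8 to SUN1 (0.80), PDLIM5 (0.75) and HELZ (0.74). Among the members themselves the r was 0.88 for LGALS4 and LGALS9, 0.81 for LGALS4 and LGALS1, 0.70 for LGALS3 and LGALS2, and -0.47 for LGALS4 and LGALS2. LGALS14 had an r of 0.86 with LGALS3 and 0.73 with LGALS2.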

How the data were processed

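Single-cell RNA was counted in 3 libraries. The count matrices deposited by the authors hold UMI counts per gene and barcode, with no normalization, made by Cell Ranger 3.1.0 (file header) on GRCh38. They hold 33893707, 27934953 and 24185467 UMIs. From them, cells with at least 2250 UMIs and 770 genes (control 1) or 1500 UMIs and 700 genes (control 2, LPS) and at most 20% mitochondrial UMIs were kept. Scrublet's automatic threshold marked 0, 0 and 1 doublets, so the 6% of cells with the highest scores were removed. The line of a cell came from a Gaussian mixture on the study's bulk lists of 396 HT29 and 756 Caco-2 genes, galectins removed. Clusters came from SCTransform (sctransform 0.4.2) and anchors (Seurat 5.3.0) without galectin genes, 50 components, 15 neighbours and Leiden (leidenalg 0.10.2) at 0.5, with HT29-line clusters split again at 0.4. Class names went to clusters by the largest average log2 fold change of a marker list (above 0.5, at least 3 markers raised at 5 CPM or more, no fewer raised than not), unless the cluster's top 10 genes held more markers of another class, a rule set after a first look at the clusters. An earlier run of these steps under other numerical settings gave another partition, so 5 further seeds were run, added after seeing the data. Summed counts went into edgeR 4.0.16 (R 4.3.3, quasi-likelihood F test, TMM, filter on low counts, Benjamini-Hochberg over all genes, threshold 0.05), with DESeq2 1.42.0 as an alternative. The edgeR fits were tested on simulated counts, and the line scores, the clustering and the class naming were not. CPM are UMIs of a sum scaled by its total, and intervals cover counting error only. Sums of both lines, or of 2 classes, of a library come from the same Transwell, which pairs them. Genes named are the members, the other galectins, the 3 genes of each list with the largest change past the threshold, and the 3 most alike genes per member. Genes and clusters outside that rule were named after their values were seen. Members and lists were chosen with earlier results of these data known.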

Additional observations from a re-analysis of the deposited data

How the results depend on the processing

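Of the recomputed log2 differences of the 6 members, 374 kept their side of the threshold or, untested, moved by less than their SE. Those called also kept their direction, but differences that were not called could change sign. LGALS8 between the lines, at 0.009 in the main fit, ran from -0.181 to 0.074 over the alternatives. Another 16, each from leaving out a control, moved by more, 1 called difference reversed, 3 lost and 2 gained the call. LGALS1 in ECLC against TALC was -0.064 with log-normalized clustering. DESeq2 lost LGALS1 and LGALS8 in ECLC against TALC and LGALS4 in GCLC against U-HT29. LGALS1 in GCLC against U-HT29 passed with the library as a replicate block, at -0.914 (adjusted p = 0.0143), and without a filter on low counts. The cause was not tested. The clustering seed, tried after seeing the data, changed no call of a member with seeds 1 to 5, although GCLC against U-HT29 gave 690 calls with seed 5 in place of 1092. For LPS the counts of genes called were 0, 9 and 0. Without a filter on low counts they were 39 in Caco-2-line cells, 39 in HT29-line cells and 6 for the difference between the lines, with DESeq2 1 in Caco-2-line cells, and with no doublets removed 3 in HT29-line cells. With the library as a replicate block, which pairs the sums of a Transwell, the counts were 9853 for the lines, 6222 for ECLC against TALC, 1454 for GCLC against U-HT29 and 16 for the difference between the lines in the LPS effect, a fit added after seeing the data in which LGALS14 passed at 0.759 (adjusted p = 0.0350). Leaving out either control kept the other control and the LPS library in the line fit. That fit took the line difference to be the same in both, so it is not one of the controls alone. LGALS4 differed by 5.29 to 5.58 between the lines there (log2). For the other comparisons, leaving out a control left values without a test, with LGALS1 at -0.8 to 0.394 under LPS in Caco-2-line cells. The summed level of the 6 members over all control cells was 2306 CPM, and 2261 to 2311 CPM under the alternatives. Depth limits LGALS9, which had 95 to 119 UMIs per library, and 1 library stands for LPS.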
